A study of Mus musculus with 8 samples.

Results

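The expression of 10 antioxidant and metallothionein genes was followed in mouse osteoblast progenitors treated with locamidazole (LAMZ), an aminoindazole derivative. The genes were taken by symbol: Sod1, Sod2, Sod3, Cat, Gpx1, Prdx1, Hmox1, Nqo1, Mt1 and Mt2, that is, 10 of the 51822 symbols in the deposited files. The study addressed how the transcriptome of the cells changes when LAMZ is added during osteoblast differentiation. Its 8 RNA sequencing libraries form 4 groups of 2: control (DMSO vehicle) at day 7, LAMZ at 1 μM at day 7, control at day 14 and LAMZ at 1 μM at day 14. All 4 groups were grown in medium with serum, ascorbic acid, β-glycerophosphate and dexamethasone at 10 nM, so that the control cells were exposed to a glucocorticoid as well. The sample labels name the cells as MC3T3-E1, an osteoblast progenitor line from mouse calvaria, whereas the series title and the methods of the study speak of calvarial cells. The labels do not say whether the 2 libraries of a group came from separate cultures, so the p-values measure only the spread between these samples. The column header of the first LAMZ library of day 7 does not repeat the LAMZ label as the other LAMZ headers do, and its group was taken from its sample label.

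The 10 genes belong to the defence of the cell against reactive oxygen and free metal. The superoxide dismutases turn superoxide into hydrogen peroxide: Sod1 encodes the copper and zinc enzyme of the cytosol, Sod2 the manganese enzyme of mitochondria and Sod3 an enzyme that is secreted into the extracellular space. Hydrogen peroxide is then removed by catalase (Cat), by the selenium enzyme glutathione peroxidase 1 (Gpx1) and by peroxiredoxin 1 (Prdx1). Hmox1 encodes heme oxygenase 1, which breaks down heme into biliverdin, iron and carbon monoxide, and Nqo1 encodes a quinone reductase; both are known targets of the transcription factor NRF2, which is held by KEAP1 and binds antioxidant response elements when released. Mt1 and Mt2 encode metallothioneins, small proteins rich in cysteine that bind zinc and copper. Their genes are known to be switched on by metals through the factor MTF1, which binds metal response elements, and by glucocorticoids.

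The metallothionein genes lie side by side on the + strand of chromosome 8 (build mm10, GRCm38), Mt2 at chr8:94172664-94173568 and Mt1 at chr8:94179082-94180327, with 5513 bases between them. The coding sequences of the GENCODE M21 transcripts of 549 bases (Mt1) and 511 bases (Mt2) are shown because the metal-binding residue, cysteine, can be read from them; its codons (TGC and TGT) are in capitals.
Mt1 coding sequence: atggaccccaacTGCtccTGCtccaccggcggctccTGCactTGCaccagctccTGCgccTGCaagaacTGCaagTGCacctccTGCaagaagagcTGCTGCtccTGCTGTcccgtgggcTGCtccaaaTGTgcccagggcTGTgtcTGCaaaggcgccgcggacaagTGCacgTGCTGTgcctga
Mt2 coding sequence: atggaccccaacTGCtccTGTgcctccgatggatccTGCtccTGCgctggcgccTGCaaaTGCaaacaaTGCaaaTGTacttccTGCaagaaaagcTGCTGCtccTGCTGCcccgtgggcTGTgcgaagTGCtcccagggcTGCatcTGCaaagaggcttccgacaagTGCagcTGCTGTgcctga
Each gene has 61 codons before the stop codon, of which 20 are cysteine codons, and all 20 stand at the same positions in both. Of the 186 coding bases compared, 148 (79.6%) were identical, and the longest run shared by the 2 transcripts was 20 bases, so that a read longer than that differs between them.

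Promoter sequences from RefSeq (GRCm38.p6, 250 bases before the start) were given for 8 of the 10 genes, all but Sod3 and Hmox1. They were searched on both strands for the core of the antioxidant response element (TGACNNNGC), the core of the metal response element (TGCACNC or TGCGCNC) and the AP-1 element (TGANTCA). The 3 promoters below are shown because they belong to genes that changed with LAMZ and hold these cores, which are in capitals; where the RefSeq start lies inside an exon of the GENCODE annotation, the printed stretch stops before that exon.
Mt2 promoter, chr8:94172368-94172617, + strand: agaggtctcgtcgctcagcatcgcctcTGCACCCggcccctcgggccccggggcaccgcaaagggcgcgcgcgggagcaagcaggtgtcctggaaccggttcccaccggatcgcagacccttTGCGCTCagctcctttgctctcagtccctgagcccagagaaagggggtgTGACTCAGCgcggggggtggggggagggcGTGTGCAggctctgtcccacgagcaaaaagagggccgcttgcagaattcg
Mt1 promoter, chr8:94178839-94179081, + strand: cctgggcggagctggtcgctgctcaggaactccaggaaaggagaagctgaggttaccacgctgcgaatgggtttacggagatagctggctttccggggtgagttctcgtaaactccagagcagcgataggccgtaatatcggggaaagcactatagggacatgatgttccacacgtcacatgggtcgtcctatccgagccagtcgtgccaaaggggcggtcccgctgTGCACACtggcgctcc
Prdx1 promoter, chr4:116685349-116685543, + strand: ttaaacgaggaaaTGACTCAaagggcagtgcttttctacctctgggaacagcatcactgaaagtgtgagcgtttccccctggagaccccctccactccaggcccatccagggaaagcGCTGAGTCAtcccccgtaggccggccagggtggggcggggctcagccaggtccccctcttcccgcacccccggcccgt
The Mt2 promoter held 3 metal response cores, beginning at positions −223, −128 and −50 relative to the start, and the Mt1 promoter held 1, beginning at −23. At least 1 such core was present in 21.4% of the 32851 promoters of the same length, and at least 3 in 1.26%. The Mt1 window ends at the edge of a gene model of 1246 exonic bases, longer than the 549-base transcript shown above. Bases further into that model were not searched, so cores there would be missed. The counts of Mt1 and Mt2 are therefore not compared. The Mt2 promoter also held an antioxidant response core at −79, the first letters of which are at the same time an AP-1 element. In the Prdx1 promoter, an antioxidant response core at −133 overlapped an AP-1 element in the same way, and another AP-1 element lay at −237. Sod1 held an antioxidant response core at −56, and no core was found in the windows of Sod2, Cat, Gpx1 and Nqo1. Bases further upstream were not searched for any gene, so cores there would be missed. Over all promoters, 10.2% held the antioxidant response core and 6.75% the AP-1 element. A match is a description of letters in the window and not of a bound site.

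Expression was deposited as RPKM, in which reads are set relative to gene length and library depth. The depth recovered from the values ranged from 3463411 to 5834794 mapped reads per library, so that 1 read is a large step for a gene as low as Mt2. Differences are given as log2 fold changes on the log2(RPKM + 1) scale with their SE, from limma fitted on all 8 libraries and the 12514 genes that reached 1 RPKM in 2 or more libraries, and are called where the Benjamini-Hochberg adjusted p is under 0.05. All 10 genes passed that filter. A fold change on this scale understates the change of low genes, and with 2 libraries against 2 an exact permutation test of a single gene could not go below p = 0.333. The median log2 fold change of all genes tested was −0.08 for LAMZ against control at day 7 and −0.15 at day 14. Of all calls, 33.9% were higher with LAMZ at day 7 and 30.3% at day 14; after centring each library on its median these shares were 53.5% and 56.3%, with quantile normalization 45.7% and 47.9%, and after rescaling each library to the same sum of RPKM they were 8.69% and 8.16%. Gapdh varied from 45.1 to 118 RPKM and passed in neither LAMZ comparison (limma adjusted p = 0.214 and 0.121).

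The cell type was checked against its markers. All 11 osteoblast markers were measured, and 7 of 11 were higher with LAMZ on each day, among them Alpl, Ibsp, Spp1 and Dmp1. Bglap and Bglap2 were called on neither day, with log2 fold changes of −0.14 and 0.38 at day 14 (limma adjusted p = 0.857 and 0.613). The control libraries also held macrophage transcripts. The sum of the 13 macrophage markers in the files was 465 and 604 RPKM in control at day 7 and 1127 and 1171 RPKM in control at day 14, but 9.28 and 7.28 RPKM in LAMZ at day 7 and 7.14 and 7.60 RPKM in LAMZ at day 14. Most of it was Lyz2, which encodes a lysozyme of myeloid cells, at 312 to 789 RPKM in control and 5.29 to 8.20 RPKM with LAMZ. In every LAMZ library 7 of the 13 markers, C1qa, C1qb and Tyrobp among them, were listed at 0. In bulk RNA, fewer cells of a type and less RNA per cell cannot be told apart. Of other cell types, none of 4 erythroid and 4 endothelial markers reached the filter, and of 5 skeletal muscle markers 1 did, Acta1, which was higher with LAMZ at day 14 (log2 fold change 3.26, limma adjusted p = 0.0016). Of 3 chondrocyte markers, Acan and Col2a1 were higher on both days and Sox9 was lower at day 14 (log2 fold change −0.66, limma adjusted p = 0.023). Of 4 adipocyte markers tested, 1 was lower at day 7 and 3 at day 14. The part of these cells in the differences described for the antioxidant genes was not tested. The macrophage sums apply to every LAMZ comparison below, the glutathione, thioredoxin, NRF2 and heme genes included.

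At day 7, 4 of the 10 genes were called lower with LAMZ by limma and none was called higher. At an unadjusted p under 0.05 in limma, 7 were lower and 0 higher, with Mt2 among the 7. At day 14 the corresponding numbers were 3 lower and 3 higher. No share over all genes was computed for these unadjusted counts. For the day 7 calls at the adjusted threshold, the background is 8.49% of all genes tested called lower and 4.35% called higher. The 4 genes called at day 7 were Cat, Prdx1, Hmox1 and Mt2, of which Mt2 rests on very few reads. Without the first LAMZ library of day 7, whose header lacks the label, 2 were called, Hmox1 (−1.20, limma adjusted p = 0.017) and Prdx1 (−0.91, 0.034). At day 14, 3 genes were called lower, namely Cat, Prdx1 and Sod3, and 2 were called higher, namely Mt1 and Mt2, against a background of 16.0% lower and 6.96% higher. Hence Cat and Prdx1 were lower on both days, Hmox1 was called only at day 7, and the metallothioneins were higher with LAMZ at day 14. The median log2 fold change of the 10 genes was −0.63 at day 7 and 0.01 at day 14.

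**Figure D1:**
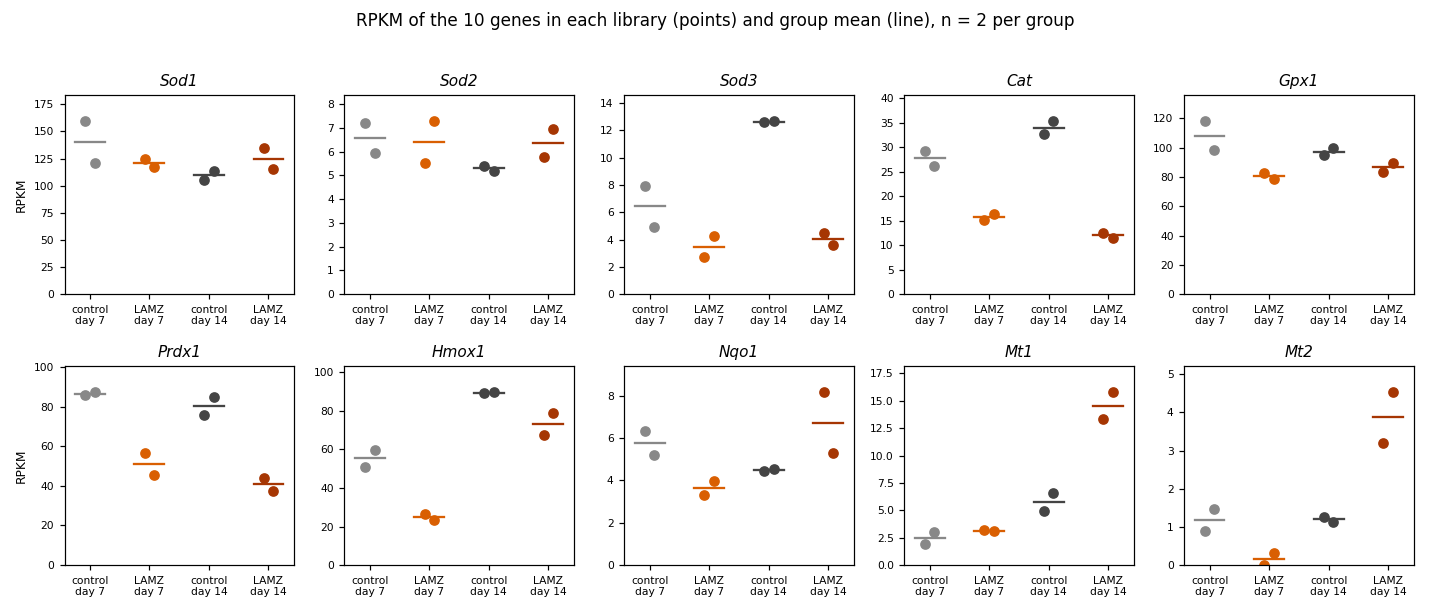
RPKM (linear axes from 0) of the 10 genes in each of the 8 libraries as points, with the mean of the 2 libraries of a group as a line. Cat and Prdx1 are lower in the LAMZ libraries on both days, Hmox1 rises from day 7 to day 14 in both arms, and Mt1 and Mt2 are highest in the LAMZ libraries of day 14.

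**Figure D2:**
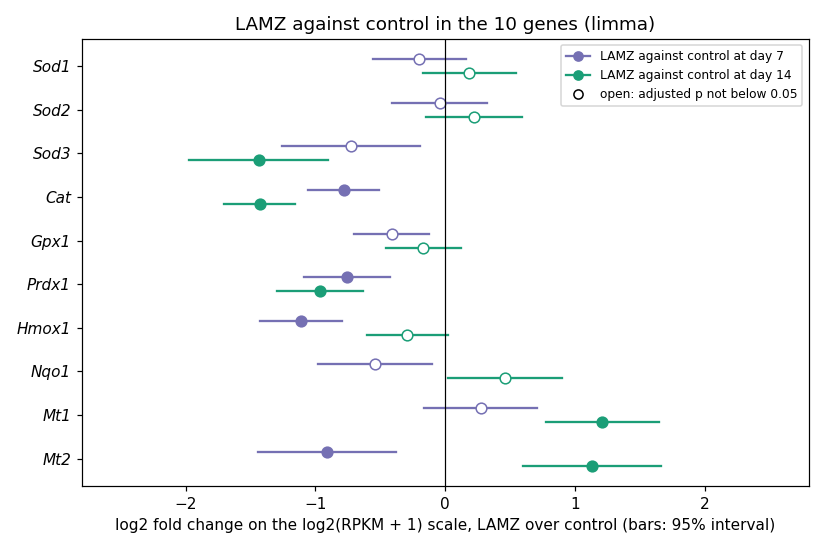
Log2 fold change of LAMZ over control on the log2(RPKM + 1) scale with its 95% interval (limma), at day 7 and day 14; filled points have an adjusted p under 0.05. At day 14 the intervals of Sod3, Cat and Prdx1 lie below 0 and those of Mt1, Mt2 and, by a small margin, Nqo1 above it; Nqo1 was not called.

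Of the superoxide dismutases, the 2 intracellular ones were not called in any comparison, whereas the secreted one differed. Sod1 (chr16:90220754-90226329, + strand) was the most highly expressed of the 10 genes per length. It measured 159 and 121 RPKM in control and 124 and 117 RPKM with LAMZ at day 7, and 106 and 114 RPKM in control and 134 and 116 RPKM with LAMZ at day 14. The first control library of day 7 was the highest, and the log2 fold changes with LAMZ were −0.20 (95% interval −0.56 to 0.16) at day 7 and 0.19 (−0.17 to 0.54) at day 14. Sod1 overlaps Scaf4 on the opposite strand, and whether strand was used in counting is not given in the sources used here. Sod2 (chr17:13006846-13040063, + strand) stayed between 5.21 and 7.28 RPKM in all 8 libraries, with log2 fold changes of −0.04 (−0.41 to 0.33) at day 7 and 0.22 (−0.15 to 0.59) at day 14.

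Sod3 (chr5:52363791-52371418, + strand) was higher in control than with LAMZ. At day 14 it measured 12.6 and 12.7 RPKM in control and 4.50 and 3.62 RPKM with LAMZ, which is 253 and 214 reads against 98 and 66 reads. The groups did not overlap, the mean was 3.12-fold lower with LAMZ, and the log2 fold change was −1.44 (SE 0.23, limma adjusted p = 0.0038). At day 7 it measured 7.95 and 4.94 RPKM in control and 2.70 and 4.26 RPKM with LAMZ. That difference, −0.73 (SE 0.23), missed the threshold with a limma adjusted p of 0.080; without the second control library of day 7 it was −1.02, at 0.040. In control, Sod3 was 1.96-fold higher at day 14 than at day 7 (log2 fold change 0.90, SE 0.23, limma adjusted p = 0.068), which was not called either. With LAMZ the corresponding value was 0.19 (SE 0.23).

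Of the enzymes that remove hydrogen peroxide, Cat and Prdx1 were lower with LAMZ on both days. Cat (chr2:103453849-103485160, − strand) measured 29.2 and 26.2 RPKM in control and 15.1 and 16.3 RPKM with LAMZ at day 7. At day 14 it measured 32.6 and 35.3 RPKM in control and 12.5 and 11.4 RPKM with LAMZ. All control libraries lay above all LAMZ libraries, and the replicates of a group differed by less than the groups did. The mean was 1.77-fold lower with LAMZ at day 7 (log2 fold change −0.78, SE 0.12, limma adjusted p = 0.0052) and 2.83-fold lower at day 14 (−1.43, SE 0.12, limma adjusted p = 0.00017). The difference between the 2 days, −0.65 (SE 0.17), was not called (limma adjusted p = 0.131). Without the first LAMZ library of day 7, the day 7 difference was −0.73 with an adjusted p of 0.054 in limma.

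Prdx1 (chr4:116685544-116700822, + strand) measured 85.8 and 87.2 RPKM in control and 56.7 and 45.6 RPKM with LAMZ at day 7. At day 14 it measured 75.9 and 84.6 RPKM in control and 43.8 and 37.5 RPKM with LAMZ. Again no LAMZ library reached a control library. The mean was 1.69-fold lower with LAMZ at day 7 (log2 fold change −0.75, SE 0.14, limma adjusted p = 0.014) and 1.97-fold lower at day 14 (−0.97, SE 0.14, limma adjusted p = 0.0027). The day 7 call was lost, at a limma adjusted p of 0.051, 0.050 or 0.092, without the first or the second control library or the second LAMZ library of that day, and at 0.058 when only the 4 libraries of day 7 were fitted. The differences at day 7 in these settings ranged from −0.77 to −0.60.

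Gpx1 (chr9:108338903-108340343, + strand) measured 118 and 98.6 RPKM in control and 82.9 and 79.0 RPKM with LAMZ at day 7. The log2 fold change was −0.41 (SE 0.13) and missed the threshold (limma adjusted p = 0.071; without the second control library of day 7 it was −0.54 at 0.047). At day 14 the values were 94.7 and 99.9 RPKM in control and 83.5 and 89.6 RPKM with LAMZ, a log2 fold change of −0.17 (SE 0.13, limma adjusted p = 0.376). The libraries of control and LAMZ did not overlap on either day, but neither difference passed. The macrophage marker sum moved in the same direction as Cat, Prdx1 and Sod3 in both LAMZ comparisons; its values were 465 to 604 RPKM against 7.28 to 9.28 RPKM at day 7 and 1127 to 1171 RPKM against 7.14 to 7.60 RPKM at day 14. In control that sum was higher at day 14 than at day 7; over the same interval the log2 fold changes were −0.11 (SE 0.14) for Prdx1, 0.29 (SE 0.12) for Cat and 0.90 (SE 0.23) for Sod3, none of which was called. The summed adipocyte markers moved with them too. They were 21.4 to 27.4 RPKM in control against 6.0 to 6.7 RPKM with LAMZ at day 7. At day 14 they were 46.2 to 96.8 RPKM against 7.7 to 9.0 RPKM. Most of the day 7 sum was Lpl, at 17.0 and 17.6 RPKM in control and 4.06 and 3.83 RPKM with LAMZ. Adipoq was at 1.54 and 0 RPKM in control at day 7. The control libraries of day 14 differed in Adipoq (2.43 and 11.7 RPKM) and Fabp4 (6.44 and 41.2 RPKM). The part of either cell type in these differences was not tested.

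**Figure D3:**
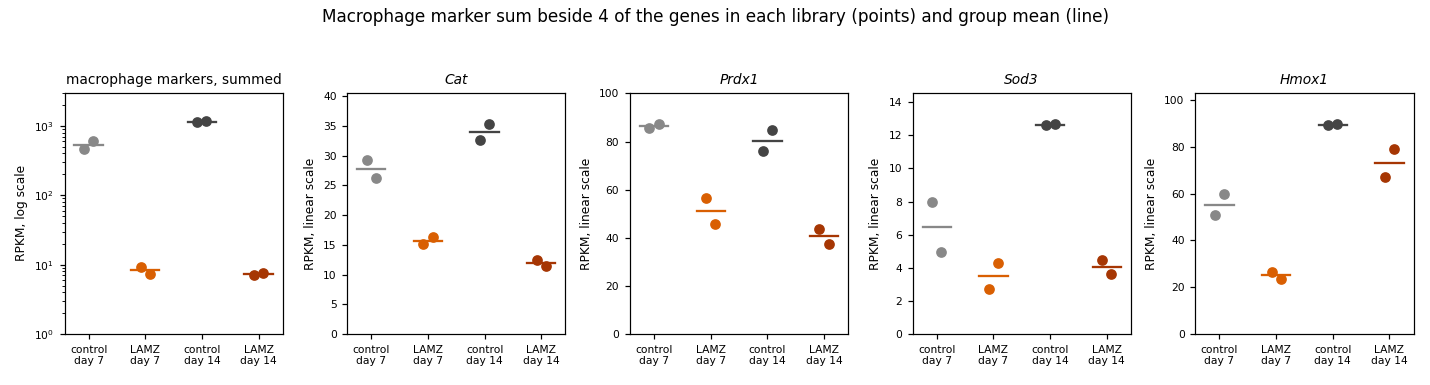
Summed RPKM of the 13 macrophage markers (log axis) beside the RPKM of Cat, Prdx1, Sod3 and Hmox1 (linear axes from 0), with a point for each library and a line for the group mean. The marker sum is at or below 9.28 RPKM in all 4 LAMZ libraries, while Hmox1 reaches 67.3 and 79.1 RPKM in the LAMZ libraries of day 14.

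Hmox1 (chr8:75093621-75100589, + strand) was lower with LAMZ at day 7 and rose between the days in both arms. At day 7 it measured 51.0 and 59.7 RPKM in control and 26.6 and 23.5 RPKM with LAMZ, 2.21-fold lower (log2 fold change −1.11, SE 0.14, limma adjusted p = 0.0021). At day 14 it measured 89.2 and 89.7 RPKM in control and 67.3 and 79.1 RPKM with LAMZ. The LAMZ libraries were still the lower ones, but the log2 fold change of −0.29 (SE 0.14) was not called (limma adjusted p = 0.163); after rescaling to the same sum of RPKM it was −0.65 with a limma adjusted p of 0.010, while the median of all genes moved to −0.43. From day 7 to day 14, Hmox1 rose 2.92-fold with LAMZ (log2 fold change 1.51, SE 0.14, limma adjusted p = 0.00082) and 1.62-fold in control (0.69, SE 0.14, limma adjusted p = 0.034). The rise in control was no longer called without 7 of the 8 libraries in turn, all but the second control library of day 7 (limma adjusted p = 0.051 to 0.149), or when only the 4 control libraries were fitted (0.151). The LAMZ effect differed between the days by 0.82 (SE 0.19), which did not pass (limma adjusted p = 0.106). Macrophages express Hmox1 strongly. The summed macrophage markers were 465 and 604 RPKM in control and 9.28 and 7.28 RPKM with LAMZ at day 7, where Hmox1 was lower with LAMZ, and 1127 and 1171 RPKM in control at day 14, to which Hmox1 rose in control. They were 7.14 and 7.60 RPKM in the LAMZ libraries of day 14, while Hmox1 rose with LAMZ between the days. The part of these cells in the values of Hmox1 was not tested.

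Nqo1 (chr8:107388225-107403206, − strand) was expressed at a low level, with 22 to 74 reads per library. It measured 6.32 and 5.21 RPKM in control and 3.32 and 3.96 RPKM with LAMZ at day 7, and 4.44 and 4.56 RPKM in control and 8.17 and 5.28 RPKM with LAMZ at day 14. The LAMZ libraries were thus the lower ones at day 7 and the higher ones at day 14, and the first LAMZ library of day 14 stood above the other. Neither difference was called: the log2 fold change was −0.54 (SE 0.19, limma adjusted p = 0.106) at day 7 and 0.46 (SE 0.19, limma adjusted p = 0.118) at day 14. Without the second LAMZ library of day 14, or with the libraries centred on their median, the day 14 difference was called (0.74 at a limma adjusted p of 0.039, and 0.66 at 0.036). The difference between the days was 1.01 (SE 0.27, limma adjusted p = 0.139). With LAMZ, Nqo1 rose 1.85-fold from day 7 to day 14 (log2 fold change 0.71, SE 0.19, limma adjusted p = 0.044), but without the first LAMZ library of day 14 the value was 0.44 with a limma adjusted p of 0.180, and the call was lost without 6 of the 8 libraries in turn.

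The metallothioneins were the genes of the 10 that were called higher with LAMZ, and only at day 14. Mt1 measured 1.92 and 3.01 RPKM in control and 3.20 and 3.08 RPKM with LAMZ at day 7, a log2 fold change of 0.28 (SE 0.19, limma adjusted p = 0.391). At day 14 it measured 4.93 and 6.57 RPKM in control and 13.4 and 15.8 RPKM with LAMZ. Both LAMZ libraries of day 14 lay above every other library, and the mean was 2.53-fold higher than in control (log2 fold change 1.21, SE 0.19, limma adjusted p = 0.0033). Counted as reads, Mt1 had 9 and 13 reads in control and 17 and 20 with LAMZ at day 7, and 33 and 37 in control and 97 and 96 with LAMZ at day 14. Scaled for depth, the ratio of LAMZ to control at day 14 was 2.55, with a 95% interval of 1.93 to 3.40 that covers counting error only. Between the days, Mt1 rose 4.64-fold with LAMZ (log2 fold change 1.91, SE 0.19, limma adjusted p = 0.0011) and 2.33-fold in control (0.97, SE 0.19, limma adjusted p = 0.032). The control rise was no longer called without 7 of the 8 libraries in turn, again all but the second control library of day 7 (limma adjusted p = 0.057 to 0.130). The LAMZ effect differed between the days by 0.94 (SE 0.27, limma adjusted p = 0.159), which did not pass.

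Mt2 was at the limit of detection at day 7. It measured 0.90 and 1.47 RPKM in control and 0 and 0.33 RPKM with LAMZ, which is 2 and 3 reads against 0 and 1 read. All 4 libraries were at or under 3 reads, the limit that a count of 0 allows, so that no fold is given although the limma adjusted p was 0.039. That call was lost without each of the 8 libraries in turn (limma adjusted p = 0.052 to 0.198). At day 14 Mt2 measured 1.27 and 1.13 RPKM in control and 3.21 and 4.53 RPKM with LAMZ, or 4 and 3 reads against 11 and 13 reads. The mean was 3.23-fold higher with LAMZ (log2 fold change 1.14, SE 0.23, limma adjusted p = 0.010), and the ratio of reads scaled for depth was 3.16, with a 95% interval of 1.32 to 8.70. The call was lost without the second control or the second LAMZ library of day 14 (limma adjusted p = 0.060 and 0.089), and with a pseudocount of 0.1 (0.111). With LAMZ, the reads rose from 1 over both libraries at day 7 to 24 at day 14, whereas control had 5 and 7 reads. The ratio with LAMZ, scaled for depth, was 21.2 with a counting interval of 3.46 to 873, and it rests on that 1 read. With both LAMZ libraries of day 7 set at 3 reads, the ratio of mean RPKM was 3.56. On the log2(RPKM + 1) scale the rise was 2.07 (SE 0.23, limma adjusted p = 0.0018). Mt2 overlaps Gm45774 on the opposite strand. Like the metallothioneins, the sums of 11 osteoblast and of 5 skeletal muscle markers were highest in the LAMZ libraries of day 14. The osteoblast sum was 11116 and 10700 RPKM in control and 16965 and 18915 RPKM with LAMZ at day 14. At day 7 it was 7207 and 8938 RPKM against 11024 and 10436 RPKM. The skeletal muscle sum was 1.41 and 1.85 RPKM in control and 23.4 and 19.1 RPKM with LAMZ at day 14. At day 7 it was 4.98 and 1.23 RPKM against 2.38 and 3.78 RPKM. It was nearly all Acta1, and Myod1, Myog, Ckm and Myh3 stayed under 0.30 RPKM in every library. The part of either cell type in the metallothionein result was not tested.

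**Figure D4:**
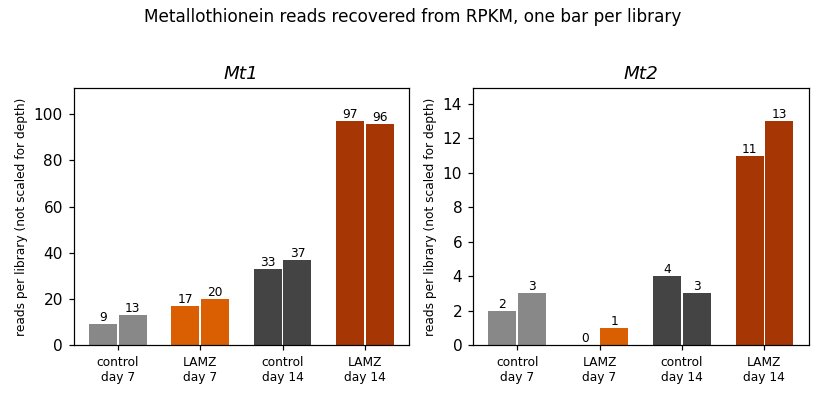
Reads of Mt1 and Mt2 in each of the 8 libraries (bars from 0, 1 bar for each library, not scaled for depth), recovered from RPKM. Mt1 has 97 and 96 reads and Mt2 11 and 13 reads in the LAMZ libraries of day 14, and Mt2 has at most 4 reads in every other library.

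The low RPKM of Mt1 depends on the gene model. Its values come out as whole reads with an exonic length of 1246 bases, the length of the whole gene, and other lengths were not tried. The transcripts that encode the protein are 549 to 1085 bases long. A level per length is therefore lower for Mt1 than it would be for the 549-base transcript, and the ratio between groups is not affected. Among 7 other genes of zinc and metal handling, 4 were tested, namely Mtf1 and the transporters Slc30a1, Slc39a10 and Slc39a14. At day 14 Slc39a14, which encodes an importer of zinc and iron, was called higher: it measured 7.47 and 7.46 RPKM in control and 17.0 and 17.9 RPKM with LAMZ (log2 fold change 1.12, limma adjusted p = 0.00099). At day 7 none of the 4 was called by limma, and 2 had an unadjusted p under 0.05, Slc39a10 and Slc39a14. The list medians were 0.11 at day 7 and −0.26 at day 14. Mtf1 itself measured 0.71 to 1.61 RPKM. Of the receptor and targets of glucocorticoids, 9 genes in all, none was called by limma at day 7, where 4 were lower at an unadjusted p under 0.05. At day 14, 2 were called lower, Nr3c1, the glucocorticoid receptor (log2 fold change −0.73, limma adjusted p = 0.0032), and Per1 (−0.51, limma adjusted p = 0.048). Dusp1 was higher at day 14 at an unadjusted p under 0.05 but was not called (log2 fold change 0.44, limma adjusted p = 0.067). It measured 12.4 and 14.2 RPKM in control and 18.2 and 18.4 RPKM with LAMZ. No share over all genes was computed for the unadjusted counts of this list. The median of that list was −0.31 at day 7 and −0.10 at day 14.

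From day 7 to day 14, none of the 10 genes was called lower by limma; at an unadjusted p under 0.05, Cat was lower with LAMZ and no gene was lower in control. In control, 2 were called higher, Hmox1 and Mt1, against 2.46% of all genes tested (2.40% were lower). With LAMZ, 4 were called higher, Hmox1, Nqo1, Mt1 and Mt2, against 5.10% (9.26% were lower); without the first LAMZ library of day 7 these were Hmox1, Mt1 and Mt2. Rescaled to the same sum of RPKM, the calls over all genes were 972 higher and 163 lower in control (85.6% higher, against 50.7%) and 966 higher and 556 lower with LAMZ (63.5% higher, against 35.5%), and centred on the median 50.5% of the calls with LAMZ were higher. Each day comparison shares its libraries with the LAMZ comparisons, so the values are given side by side and are not independent of them. For the difference of the LAMZ effect between the days, 1 of 10 genes was called, Mt2 at 2.05 (SE 0.33, limma adjusted p = 0.045), against 0.312% of all genes higher and 0.312% lower. This value includes the 0 and 1 reads of day 7 and depends on the pseudocount. It was lost without each of the 8 libraries in turn.

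Further genes of the same pathways were counted from lists. Over all genes tested, 8.49% were called lower and 4.35% higher with LAMZ at day 7. At day 14 these shares were 16.0% lower and 6.96% higher. They are the background of every list count in the LAMZ comparisons, those of the zinc, glucocorticoid and cell type lists above included. Whether a list departs from its background was not tested. Of 10 other superoxide and peroxide enzymes, 1 was called higher at day 7, the secreted glutathione peroxidase Gpx3, with 122 and 99.5 RPKM in control and 162 and 182 RPKM with LAMZ (log2 fold change 0.63, limma adjusted p = 0.029). At day 14, 1 was called lower, Gpx8, a peroxidase of the endoplasmic reticulum (−0.74, limma adjusted p = 0.029). The medians of this list were 0.03 and −0.01. The other peroxiredoxins, Prdx2 to Prdx6, were not called with LAMZ on either day; whether they differ from Prdx1 was not tested.

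Of 11 glutathione genes tested, 5 were called lower with LAMZ on each day and none higher. The largest change was in Mgst1, a microsomal glutathione transferase, which measured 8.43 and 7.60 RPKM in control and 0.82 and 0.29 RPKM with LAMZ at day 7, and 6.85 and 8.24 RPKM against 0.09 and 0.20 RPKM at day 14 (log2 fold changes −2.56 and −2.90, limma adjusted p = 0.00024 and 6.4e-05). Gstm2 fell by 0.96 at day 7 and by 1.17 at day 14 on the log2 scale (limma adjusted p = 0.0046 and 0.0011), and Gstm1 fell by 0.92 and by 0.86 (0.0079 and 0.0059). These 2 are near copies of each other, and reads may be split between them. Gclm, a subunit of the enzyme that makes the glutathione precursor, fell by 0.90 at day 7 and by 0.57 at day 14 (limma adjusted p = 0.0062 and 0.023). The median of the list was −0.39 at day 7 and −0.14 at day 14.

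Of 7 thioredoxin genes, 3 were called lower at day 7 and 2 at day 14. Txnip, an inhibitor of thioredoxin, measured 51.7 and 61.4 RPKM in control and 8.43 and 14.4 RPKM with LAMZ at day 7, and 75.9 and 94.3 RPKM against 4.70 and 3.99 RPKM at day 14 (log2 fold changes −2.25 and −4.00, limma adjusted p = 0.00098 and 3.2e-05). Glutaredoxin (Glrx) fell by 0.90 and by 1.57 (limma adjusted p = 0.0085 and 0.00037). Srxn1, which repairs oxidized peroxiredoxins, fell by 0.94 at day 7 (limma adjusted p = 0.0045). At day 14 it measured 14.3 and 15.8 RPKM in control and 10.9 and 11.3 RPKM with LAMZ and was not called. The list median was −0.44 at day 7 and −0.14 at day 14.

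In the NRF2 pathway, 15 genes were tested, of which 1 was called higher and 3 lower at day 7, and 1 higher and 6 lower at day 14. The genes called lower at day 7 were Osgin1 (−1.09), Pgd (−0.76) and Sqstm1 (−0.71), with limma adjusted p-values of 0.028, 0.0033 and 0.010, and Me1 was higher (0.73, limma adjusted p = 0.017). At day 14 the largest falls were those of Osgin1 (−1.02), Ephx1 (−0.77), Taldo1 (−0.74) and G6pdx (−0.68), with limma adjusted p-values of 0.023, 0.0086, 0.019 and 0.021. Pgd, Taldo1 and G6pdx encode enzymes of the pentose phosphate pathway, which supplies NADPH. Tkt, another enzyme of that pathway, gave 0.31 at day 14 and was not called (limma adjusted p = 0.107). Nfe2l2, which encodes NRF2 itself, measured 13.3 and 15.6 RPKM in control and 18.7 and 22.9 RPKM with LAMZ at day 14, and was the gene called higher (0.50, limma adjusted p = 0.035). With LAMZ it rose from day 7 to day 14 by a log2 fold change of 1.08 (limma adjusted p = 0.0030), as did Sqstm1, which encodes the KEAP1-binding protein p62 (1.19, limma adjusted p = 0.0014). In control Sqstm1 rose as well (0.76, limma adjusted p = 0.019), and Nfe2l2 gave 0.41 (limma adjusted p = 0.134). The difference of the LAMZ effect between the days was not called for either gene (limma adjusted p = 0.163 for Nfe2l2 and 0.283 for Sqstm1). The list median was −0.28 at day 7 and −0.37 at day 14.

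Among 9 heme and iron genes, 2 were called higher and 3 lower at day 7, and 3 lower at day 14. Blvrb, which encodes biliverdin reductase B, fell on both days (−1.23 and −1.25, limma adjusted p = 0.0014 and 0.00074), and Blvra fell at day 14 (−1.26, limma adjusted p = 0.0013). Fth1, the heavy chain of the iron store ferritin, was lower at day 7 (−1.04, limma adjusted p = 0.0086). The iron exporter Slc40a1 was higher at day 7 (1.34, limma adjusted p = 0.0022), and so was the transferrin receptor Tfrc (0.91, limma adjusted p = 0.0064), neither of which was called at day 14. The medians of the list were −0.25 and −0.27. Over the 8 libraries, Fth1 was also the gene whose pattern was most like that of Hmox1. It measured 254 and 376 RPKM in control and 150 and 149 RPKM with LAMZ at day 7, and 708 and 698 RPKM in control and 504 and 491 RPKM with LAMZ at day 14. Ferritin genes have many processed copies in the genome, so that their reads are uncertain.

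Of 7 oxidant-producing enzymes tested, 3 were called lower at day 7 and 6 at day 14, and the list medians were −0.89 and −1.88. Ncf4 and Cybb, subunits of the NADPH oxidase of phagocytes, were at or under 0.12 RPKM in all LAMZ libraries. In control at day 14, Ncf4 measured 2.95 and 2.41 RPKM and Cybb 4.01 and 3.05 RPKM. Xdh, which encodes xanthine dehydrogenase, fell by 1.53 at day 7 and by 2.24 at day 14 (limma adjusted p = 0.0010 and 8.5e-05). Ncf4 and Cybb are known from phagocytes, and the macrophage marker sums given above moved with them. Ncf1, another subunit of that oxidase, was not called on either day. It measured 1.74 and 1.89 RPKM in control and 3.58 and 2.36 RPKM with LAMZ at day 7. At day 14 it measured 4.47 RPKM in each control library and 3.65 and 3.41 RPKM with LAMZ (limma adjusted p = 0.266). The part of macrophages in these differences was not tested.

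**Figure D5:**
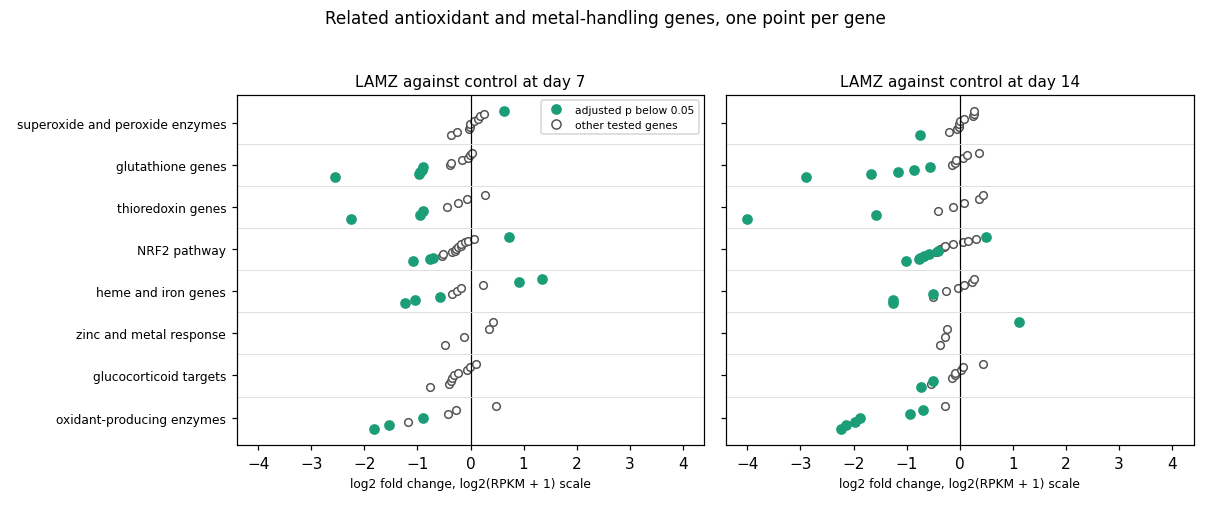
Log2 fold change of LAMZ over control on the log2(RPKM + 1) scale for every tested gene of 8 lists of related genes, at day 7 (left) and day 14 (right); green points have an adjusted p under 0.05 (limma). All called glutathione, thioredoxin and oxidant-producing genes lie below 0, and Slc39a14 is the called gene of the zinc list at day 14.

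The patterns of the 10 genes over the 8 libraries were not the same. Pearson's r of log2(RPKM + 1) over the 8 libraries is given as a description, without a test, since the libraries fall into 4 groups. The highest r between members was that of Cat and Prdx1 (0.94), followed by Sod3 and Cat (0.87) and by Mt1 and Mt2 (0.82). The lowest was that of Prdx1 and Mt1 (−0.63). Among the tested genes with a mean of 5 RPKM or more, the nearest to Cat were Nov and Adm (both 0.99), to Prdx1 Myof and Trio (both 0.99), to Sod3 Borcs6 (0.99) and Cpxm2 (0.98), and to Mt1 Rgs3 and C430049E01Rik (both 0.99). The nearest to Hmox1 were Fth1 and Chmp4b (both 0.98), to Mt2 Ier2 (0.95) and Fam20c (0.94), and to Nqo1 Kxd1 (0.98) and Ezr (0.96). Those nearest to Gpx1 were Drap1 (0.98) and Zc3h7b (0.97), to Sod1 Myl6 (0.98) and Phb (0.96), and to Sod2 Gm24105 (0.96) and Gpaa1 (0.94).

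At day 14 with LAMZ the order of the levels per length was Sod1 (125 ± 13.1 RPKM), Gpx1 (86.6 ± 4.33), Hmox1 (73.2 ± 8.35), Prdx1 (40.7 ± 4.49), Mt1 (14.6 ± 1.72), Cat (12.0 ± 0.77), Nqo1 (6.72 ± 2.05), Sod2 (6.37 ± 0.83), Sod3 (4.06 ± 0.62) and Mt2 (3.87 ± 0.93), each as mean ± SD of RPKM with n = 2. In control at day 14 it was Sod1 (110 ± 5.78), Gpx1 (97.3 ± 3.67), Hmox1 (89.5 ± 0.33), Prdx1 (80.2 ± 6.17), Cat (34.0 ± 1.88), Sod3 (12.6 ± 0.042), Mt1 (5.75 ± 1.16), Sod2 (5.31 ± 0.14), Nqo1 (4.50 ± 0.086) and Mt2 (1.20 ± 0.098). With LAMZ, the 2 libraries of Nqo1 overlapped those of Sod2, and those of Sod3 overlapped those of Mt2; in control, those of Mt1 overlapped those of Sod2. Mt1 thus stood after Cat and Sod3 in control and before both with LAMZ, at the exonic length of 1246 bases used for it. A shorter length would raise its level, so its place in the order can depend on that length.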

How the data were processed

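RNA was sequenced from 8 libraries, 2 for each of control and LAMZ at day 7 and day 14, grouped by their labels. The authors sequenced on an Ion Proton, assigned reads with CLC Genomics Workbench (version not given in the sources used here) and deposited RPKM per gene symbol; the submitters' processing notes name mm10. In each file 4 entries with damaged symbols were left out. No scaling between libraries is stated, and none was added.

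Log2(RPKM + 1) of genes that reached 1 RPKM in 2 or more libraries was fitted with limma 3.58.1 (R 4.3.3; lmFit, eBayes with trend, 4 groups, 4 residual degrees of freedom, two-sided, Benjamini-Hochberg). The fit was tested on simulated data. RPKM is no count, so no count test was run. Mapped reads were set, with GENCODE M21 lengths, to the number at which low values of single-exon genes became whole reads within 0.05; per library, 886 to 1568 values were examined and 96.5% to 97.4% came out whole. Reads are given for Sod3, Nqo1, Mt1 and Mt2, within 0.1 of a whole number in all 8 libraries, with intervals for counting error only. Samples with the same replicate number did not deviate together (correlations −0.02 and 0.02), so the fit has no replicate block.

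The 10 genes and the 15 lists beside them were chosen with earlier results of these data known. All 10 are named, with at most the 4 called genes of largest change per list in a comparison, and the 2 nearest patterns per gene; the pathway members named without a call were chosen after their values were seen. The alternatives were other pseudocounts, filters, scalings, fits and leaving out each library.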

Additional observations from a re-analysis of the deposited data

Results flagged for a closer look

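The LAMZ effect on Mt2 differed between day 7 and day 14, by 2.05 on the log2(RPKM + 1) scale (SE 0.33, limma adjusted p = 0.045), by a test of the difference itself. Mt2 had 2 and 3 reads in control and 0 and 1 read with LAMZ at day 7, and 4 and 3 reads in control and 11 and 13 reads with LAMZ at day 14. Both LAMZ libraries were below control at day 7 and above it at day 14. The call was lost without each of the 8 libraries in turn, with limma adjusted p-values from 0.068 to 0.173. For Mt1, the neighbouring gene with more reads, the difference between the days was 0.94 and was not called (limma adjusted p = 0.159).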

How the results depend on the processing

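Alternatives gave 773 further values for single genes, of which 670 kept their direction and their side of the threshold, 63 kept the direction but were no longer called, 21 became called and 19 turned direction, none of them a called result. Of the 9 calls in the LAMZ comparisons, Hmox1 at day 7 and Sod3, Cat, Prdx1 and Mt1 at day 14 were kept under every alternative that gave a value. The number of the 10 genes called was 4 (day 7), 5 (day 14), 2 (days in control), 4 (days with LAMZ) and 1 (difference). Rescaling to the same sum of RPKM gave 8 at day 7 and 4 for the days in control, with the median of all genes moved to −0.31 at day 7 and −0.43 at day 14. Of the 12514 genes tested, it called 3280 lower and 312 higher at day 7, against 1063 and 544 in the main fit. For the days in control it called 972 higher and 163 lower, against 308 and 300. The added rescaling over protein-coding genes, chosen after seeing the data, gave 6 at day 7, where 1451 of all genes were lower and 522 higher. Fitting only the 4 libraries compared gave 2 at day 7, where 405 of all genes were lower and 219 higher. It gave 0 for the days in control, where none of all genes was called. No filter gave 0 for the days in control, and a pseudocount of 0.1, no filter, no trend and RPKM of at least 5 (where Mt2 was not tested) gave 0 for the difference. Leaving out 1 library gave 2 to 4 at day 7, 4 to 5 at day 14, 0 to 2 in control, 3 to 4 with LAMZ and 0 for the difference.

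With a replicate block the counts were 4, 5, 1, 3 and 0; the calls lost were Hmox1 in control (adjusted p = 0.052), Nqo1 with LAMZ (0.052) and the Mt2 difference (0.058), and the pairing is not established by the labels. Directions that turned, all uncalled, were as follows on the log2 scale. At day 7, Sod2 was 0.071 after median centring, 0.056 after quantile normalization and −0.21 to 0.13 without 1 library. At day 14, the same sum gave −0.18 for Sod1 and −0.090 for Sod2, quantile normalization −0.063 for Sod1 and median centring 0.023 for Gpx1. In control between the days, the same sum gave 0.11 for Gpx1 and 0.15 for Prdx1, and Mt2 was −0.023 after quantile normalization and −0.17 to 0.21 without 1 library. With LAMZ between the days, Sod2 was −0.00073 with a pseudocount of 5, −0.025 with the protein-coding sum and −0.17 to 0.17 without 1 library, Sod1 −0.062 to 0.15 and Sod3 −0.063 to 0.45. The cause was not tested. The depth limits Mt2 most, with 0 to 13 reads per library.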
